A study of Homo sapiens with 6 samples.

Results

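The MYC network comprised 10 genes that encode MYC, its relatives MYCN and MYCL, their partner MAX, the antagonists MXD1, MXD3, MXD4, MXI1 and MNT, and the MAX-like protein MLX. They were chosen by name, and all 10 had a row among the 17177 genes of the deposited expression table. The study asked how pyrvinium pamoate (PP), an anthelmintic drug examined as an inhibitor of the RNA-binding protein ELAVL3, alters the transcriptome of neuroendocrine prostate cancer cells. All 6 libraries came from NCI-H660, an established human neuroendocrine prostate cancer line, harvested on day 3. Of these, 3 were of cells given PP and 3 of control cells given phosphate-buffered saline (PBS). No library carried an introduced allele or knockdown, a single cell line was studied, and the PP concentration used for these cultures was not given in the sources used here. The labels do not say whether the libraries of a group came from separate cultures, and the study's text calls them independent samples in a legend and duplicates in its methods. The p-values below therefore measure the spread between these libraries, which may be technical.

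MYC proteins are basic helix-loop-helix leucine zipper transcription factors that bind DNA as heterodimers with MAX, preferably at the E-box CACGTG, and activate genes of growth, ribosome production and metabolism. MXD proteins and MNT compete for MAX and for the same DNA element, and recruit SIN3-HDAC corepressors. MLX is a parallel partner, which binds MXD1, MXD4 and MNT as well as the glucose-responsive factors MondoA (MLXIP) and ChREBP (MLXIPL). MYCN is a driver of neuroendocrine prostate cancer, and MYCL was first found amplified in small cell lung cancer.

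The E-box through which the network acts was looked for in the promoters of its own genes, to show which members carry it. RefSeq promoter sequences on GRCh38.p14 were matched by symbol for 9 of the 10 genes, and the 250 bases before each start site were read. The letters CACGTG, which read the same on both strands, were present for *MXD4*, *MNT* and *MLX*, at 238, 193 and 50 bases before the start. These genes did not move together: with PP *MXD4* was lower, and *MNT* and *MLX* were higher. These are 3 of 9 genes, counted over all their start sites, and by the same count 11.4% of the 9557 tested genes with an entry held these letters. Counted by start site, they were in 6.34% of all 35116 windows of that source. The windows below are chr4:2262317-2262359 on the minus strand, chr17:2401223-2401278 on the minus strand and chr17:42567025-42567080 on the plus strand, with the E-box in capitals.
MXD4: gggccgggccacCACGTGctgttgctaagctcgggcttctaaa
MNT: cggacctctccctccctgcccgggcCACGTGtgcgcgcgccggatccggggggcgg
MLX: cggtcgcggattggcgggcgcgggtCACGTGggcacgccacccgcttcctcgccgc

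*MYCL*, *MYCN*, *MAX*, *MXD1*, *MXD3* and *MXI1* held no CACGTG in this window. The 120 bases directly before the start are shown for *MYCL*, *MYCN*, *MXD1* and *MXD3*, the members besides *MYC* with the largest FPKM ratios between the groups. They lie at chr1:39901918-39902037 (minus strand), chr2:15940430-15940549 (plus), chr2:69914989-69915108 (plus) and chr5:177312753-177312872 (minus), and nothing is capitalised because no searched motif was found.
MYCL: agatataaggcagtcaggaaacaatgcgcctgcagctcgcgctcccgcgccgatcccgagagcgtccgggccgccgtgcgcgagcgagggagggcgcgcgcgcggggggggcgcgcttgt
MYCN: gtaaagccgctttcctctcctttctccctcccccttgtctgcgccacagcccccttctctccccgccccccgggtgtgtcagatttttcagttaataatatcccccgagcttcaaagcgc
MXD1: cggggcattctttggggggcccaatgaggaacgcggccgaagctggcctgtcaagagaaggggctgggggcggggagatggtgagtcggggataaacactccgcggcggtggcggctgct
MXD3: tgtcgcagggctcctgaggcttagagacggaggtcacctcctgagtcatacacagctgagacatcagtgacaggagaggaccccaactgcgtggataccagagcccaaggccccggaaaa

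The *MYCL* stretch was the richest in G and C of the 4, with 88 of 120 bases, against 81 for *MXD1*, 70 for *MXD3* and 69 for *MYCN*. Also searched on both strands were the variant E-box CACGCG, present for 20.1% of the tested genes, and TGATGNAA, the letters bound by ATF4 with C/EBP proteins, present for 2.15%. Neither was found before the start of any matched member. A match is a description of the letters, not of binding.

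With PP the MYC family exchanged its leading member, from *MYCL* to *MYC*. *MYC* rose 7.70-fold, *MYCL* was 3.97-fold lower and *MYCN*, the least abundant, was 2.21-fold lower in mean FPKM (sequenced fragments scaled by gene length and by library depth). Around them *MAX* rose 1.45-fold, *MXD1* rose 2.45-fold and *MXD3* was 1.94-fold lower. Of the 10 genes 9 had a mean FPKM of at least 1 and entered the main limma fit of log2(FPKM + 1) over 11726 genes, and *MYCN* was read from the same fit over the 13771 genes with a mean of at least 0.1. At an adjusted p under 0.05, 6 of the 10 were higher and 4 were lower. This drug moved much of the transcriptome: 38.1% of all genes tested were called higher and 34.4% lower, and 32.4% were lower in the wider fit used for *MYCN*. Only 3 members also passed a stricter cutoff, an unadjusted limma p under 0.001 with a log2 fold change beyond 1. They were *MYC* and *MXD1* upward, where 2.24% of all genes passed, and *MYCL* downward, where 2.93% passed. *MXD1* passed narrowly, at 1.04, and without PBS library 3 its log2 fold change was 0.98, below this limit. The PP and PBS values did not overlap for 9 of the 10 genes. Among the 9 members in the main fit they did not overlap for 8, against 75.0% of all genes tested in that fit. The median absolute log2 fold change was 0.52 over the 9 members in the main fit and 0.27 over all genes.

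**Figure D1:**
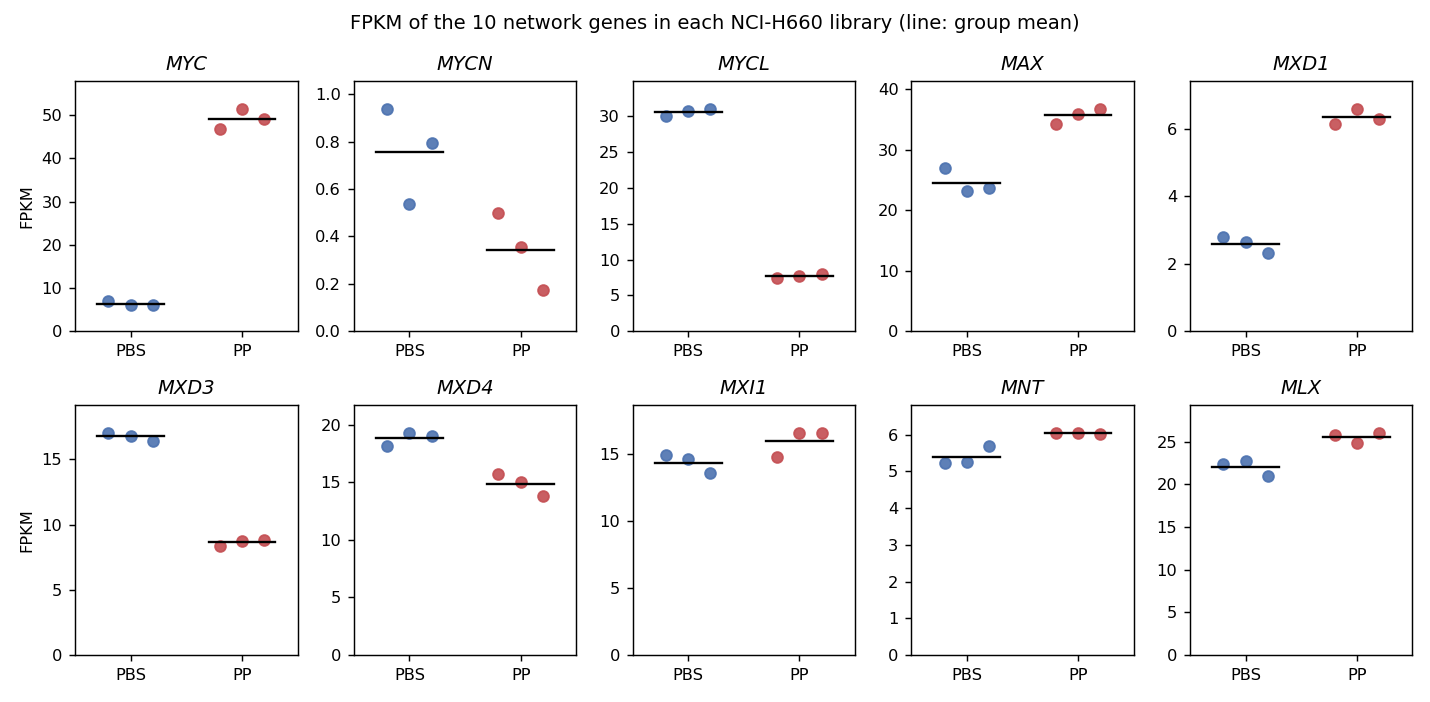
FPKM of each of the 10 network genes (vertical axis, linear and starting at 0, scaled separately for each gene) in the 3 PBS and 3 PP libraries of NCI-H660; each point is 1 library and the line is the group mean. The points of the groups are separate for every gene except *MXI1*, with the widest gaps for *MYC* and *MYCL*.

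*MYC*, the family member most widely active in dividing cells, had an FPKM of 7.05, 5.99 and 6.13 in PBS libraries 1 to 3 and of 46.9, 51.5 and 49.2 in PP libraries 1 to 3. Every PP library was thus several times above every PBS library, and the spread within each group was small beside the gap. The means were 6.39 ± 0.574 and 49.2 ± 2.30 (SD, n = 3 each), and the log2 fold change was 2.77 (SE 0.06, 95% interval 2.63 to 2.90, limma adjusted p = 1.75e-10). The values rested on 793 to 986 recovered reads per PBS library and 6506 to 7279 per PP library. *MYC* (gene ID 4609) lies on chromosome 8 from 127735434 to 127742951 in the RefSeq annotation of GRCh38.p14, which is also the source of the positions given below.

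*MYCL*, the family member associated with small cell and neuroendocrine tumours, took the opposite course. Its FPKM was 30.0, 30.7 and 31.1 with PBS and 7.42, 7.75 and 7.95 with PP. Every PP library lay far below every PBS library, and replicates of a group lay close together. The means were 30.6 ± 0.522 and 7.70 ± 0.266 (SD, n = 3 each), and *MYCL* fell by 1.86 on the log2 scale (SE 0.04, limma adjusted p = 2.8e-10). It was read 4365 to 4706 times per PBS library and 1105 to 1263 times per PP library. *MYCL* (gene ID 4610) lies on chromosome 1 from 39895428 to 39901917.

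*MYCN*, a neural-lineage family member and a main subject of the study, was the least abundant member in both groups. Its FPKM was 0.939, 0.535 and 0.796 with PBS and 0.498, 0.355 and 0.175 with PP, from 76, 41 and 65 recovered reads and 40, 28 and 15 reads. The lowest PBS library and the highest PP library were separated by a single read, and their FPKM nearly met. The means were 0.757 ± 0.205 and 0.343 ± 0.162 (SD, n = 3 each), which is 54.7% lower with PP. The pseudocount compresses differences of a gene this low, and on the log2(FPKM + 1) scale that of *MYCN* was -0.39 (SE 0.11, limma adjusted p = 0.0108). The size depended on the scale: it was -1.24 (95% interval -2.01 to -0.46, adjusted p = 0.00552) when limma-voom was run on the recovered reads, and -0.99 with a pseudocount of 0.1. *MYCN* (gene ID 4613) lies on chromosome 2 from 15940550 to 15947004, and the antisense gene *MYCNOS*, not analysed here, overlaps its start. Whether reads were counted by strand was not stated, so reads of this pair cannot be told apart.

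As a share of the summed FPKM of the 3 family genes, *MYCL* made up 81.1% with PBS, *MYC* 16.9% and *MYCN* 2.0%. With PP the shares were 85.9% for *MYC*, 13.5% for *MYCL* and 0.603% for *MYCN*. The FPKM of *MYC* was 0.209 ± 0.0222 times that of *MYCL* with PBS and 6.38 ± 0.237 times with PP (SD, n = 3 each). The sum of the family rose less than *MYC* alone, from 37.7 ± 0.449 to 57.2 ± 2.39, as the higher *MYC* was added to a lower *MYCL*. These are transcript levels of a culture, in which fewer cells of a kind and less RNA per cell cannot be told apart, and proteins were not measured in these files.

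**Figure D2:**
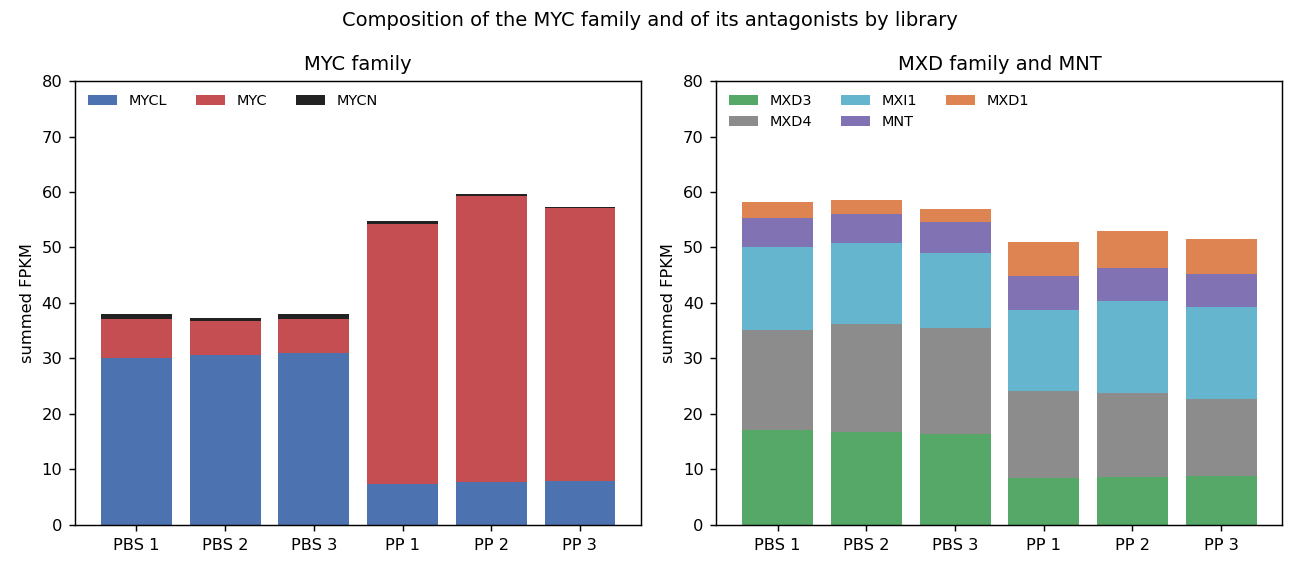
Summed FPKM (vertical axis, linear from 0) of the MYC family genes (left) and of the MXD family and *MNT* (right) in each of the 6 libraries, with 1 bar per library and 1 colour per gene. *MYCL* fills most of the PBS bars of the family and *MYC* most of the PP bars, while the antagonist bars keep a similar height with more *MXD1* and less *MXD3*.

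*MAX*, the shared partner of MYC and MXD proteins, was higher with PP, as was the sum of the family. Its FPKM was 26.9, 23.1 and 23.6 with PBS and 34.3, 36.0 and 36.8 with PP. The groups did not overlap, and PBS library 1 stood above the other two PBS libraries. The means were 24.6 ± 2.07 and 35.7 ± 1.26 (SD, n = 3 each), with a log2 fold change of 0.52 (SE 0.06, limma adjusted p = 1.59e-05). The ratio of the family sum to *MAX* was 1.54 ± 0.114 with PBS and 1.60 ± 0.0497 with PP, and the libraries of the groups overlapped in this ratio.

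Among the antagonists, *MXD1* and *MXD3* moved in opposite directions. *MXD1*, known for its induction in differentiating cells, had an FPKM of 2.80, 2.64 and 2.33 with PBS and 6.15, 6.60 and 6.31 with PP. All PP libraries were above 6 and all PBS libraries under 3. The log2 fold change was 1.04 (SE 0.07, limma adjusted p = 2.62e-07), from means of 2.59 ± 0.238 and 6.35 ± 0.230 (SD, n = 3 each). *MXD3*, the MXD gene associated with proliferating cells, had an FPKM of 17.1, 16.8 and 16.4 with PBS and 8.39, 8.70 and 8.80 with PP. The groups were far apart beside a within-group spread of less than 1 FPKM. *MXD3* fell by 0.88 on the log2 scale (SE 0.04, limma adjusted p = 4.8e-08), from 16.8 ± 0.322 to 8.63 ± 0.215.

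The other antagonists changed less. *MXD4*, expressed in many resting tissues, had an FPKM of 18.1, 19.3 and 19.0 with PBS and 15.7, 15.0 and 13.8 with PP, all PP values being below all PBS values. It was 21.1% lower, with a log2 fold change of -0.32 (SE 0.05, limma adjusted p = 2.65e-04). *MXI1*, also called MXD2, had an FPKM of 14.9, 14.6 and 13.5 with PBS and 14.8, 16.6 and 16.6 with PP, so PP library 1 fell within the PBS range. Its log2 fold change of 0.14 (SE 0.06, limma adjusted p = 0.0427) passed the threshold narrowly, and 7 of 13 alternative analyses placed it above, among them those without PBS library 2 or 3 or without PP library 2 or 3.

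*MNT*, the broadly expressed antagonist that pairs with either MAX or MLX, had an FPKM of 5.24, 5.26 and 5.69 with PBS and 6.06, 6.05 and 6.01 with PP. The groups did not overlap, but the difference was small and PBS library 3 lay nearer the PP libraries. The log2 fold change was 0.14 (SE 0.05, limma adjusted p = 0.0362), and 7 of 13 alternatives lost the call, among them leaving out any single library other than PBS library 3. For *MXI1* the adjusted p reached 0.157 over these alternatives, and for *MNT* 0.106. *MLX* had an FPKM of 22.4, 22.7 and 20.9 with PBS and 25.8, 24.8 and 26.1 with PP, all PP values being the higher. It rose by 16.2% (log2 fold change 0.21, SE 0.04, limma adjusted p = 0.00164).

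**Figure D3:**
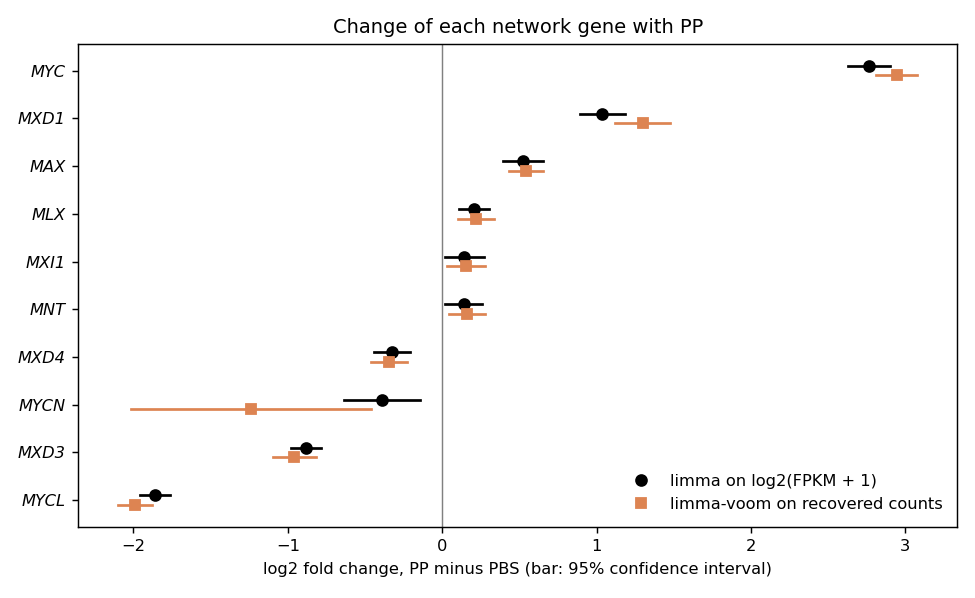
Log2 fold change (horizontal axis, PP minus PBS) of the 10 genes in order of size, with black circles for limma on log2(FPKM + 1), orange squares for limma-voom on recovered reads, and bars for 95% confidence intervals. Both analyses give every gene the same direction, and they differ most for *MYCN* (-0.39 and -1.24).

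Summed over *MXD1*, *MXD3*, *MXD4*, *MXI1* and *MNT*, the antagonists had 57.9 ± 0.846 FPKM with PBS and 51.8 ± 0.987 with PP (SD, n = 3 each). The share of *MXD1* in this sum went from 4.47% to 12.3% and that of *MXD3* from 29.0% to 16.7%. *MXD4* held 32.5% and 28.6%, *MXI1* 24.8% and 30.8%, and *MNT* 9.32% and 11.7%. The ratio of the MYC family sum to the antagonist sum was 0.652 ± 0.0160 with PBS and 1.10 ± 0.0266 with PP, with no overlap between the groups. These sums and ratios were not tested.

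The order of the levels changed accordingly. With PBS the order of mean FPKM from the highest was *MYCL*, *MAX*, *MLX*, *MXD4*, *MXD3*, *MXI1*, *MYC*, *MNT*, *MXD1* and *MYCN*, and no neighbours overlapped over the 3 libraries. With PP it was *MYC*, *MAX*, *MLX*, *MXI1*, *MXD4*, *MXD3*, *MYCL*, *MXD1*, *MNT* and *MYCN*, and the libraries of *MXI1* and *MXD4* overlapped. *MAX* and *MLX* followed the leading gene in both groups, and *MYCN* came last.

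The genes whose values over the 6 libraries ran closest to those of *MYC*, by Euclidean distance of log2(FPKM + 1) from the PBS mean, were *AREG* (0.253), *INHBE* (0.264), *ATF3* (0.271), *NEDD4* (0.372) and *PPP1R15A* (0.444). *AREG* encodes an EGF receptor ligand, *INHBE* an activin subunit, *ATF3* a stress-induced transcription factor, *NEDD4* a ubiquitin ligase and *PPP1R15A* a phosphatase subunit of the integrated stress response. The nearest to *MYCN* were *LMNTD2* (0.0757), *SNAPC2* (0.156), *SAMD15* (0.191), *TRIM17* (0.194) and *TMEM60* (0.194). The distance is on the log2(FPKM + 1) scale, which compresses *MYCN*: these 5 genes were 21.8% to 33.9% lower in mean FPKM, against 54.7% for *MYCN*.

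The remaining partners moved little. *MGA*, a large MAX partner that represses germline genes, was higher (9.54 ± 0.393 to 11.2 ± 0.270 FPKM, log2 fold change 0.21, limma adjusted p = 0.00263). *MLXIP*, the MondoA partner of MLX, was lower (24.4 ± 0.889 to 22.1 ± 0.632, -0.14, adjusted p = 0.0149). *MLXIPL* had 0.858 ± 0.0901 and 1.05 ± 0.213 FPKM and passed no test (adjusted p = 0.19 in the wider fit). Of 4 tested MLX-MondoA targets, 3 were lower, where 34.4% of all genes were, and none was higher: *TXNIP* (-0.78), *ARRDC4* (-0.18) and *PFKFB3* (-0.15), with *KLF10* at 0.05 and not called (median -0.17). The number lower was 2 with the replicate number as a block, and 2 among genes with a mean of at least 5 FPKM. *PKLR* was too low to test.

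For the corepressor and coactivator genes that the network recruits, changes went both ways. Of 16 SIN3-HDAC genes 6 (37.5%) were higher, 5 (31.2%) lower and 5 not called, near the 38.1% and 34.4% over all genes, with a median log2 fold change of 0.03 beside 0.02 over all genes. The histone deacetylase *HDAC1* (-0.54) and the histone-binding *RBBP7* (-0.33) and *RBBP4* (-0.26) were lower, and *ARID4A* (0.46), *ARID4B* (0.37) and *ING2* (0.36) were higher. Of 17 MYC coactivator genes 6 (35.3%) were higher, 6 (35.3%) lower and 5 not called, near the shares over all genes (median -0.005), among them the acetyltransferase *CREBBP* (0.49) and *CCNT1* (0.24) upward, and *HCFC1* (-0.36), *TRRAP* (-0.23) and *KAT2A* (-0.19) downward.

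Genes that act on MYC and MYCN protein were mixed, with 8 (36.4%) higher, 7 (31.8%) lower and 7 not called of 22, near the 38.1% and 34.4% over all genes (median -0.05 beside 0.02). The deubiquitinases *USP36* (0.85) and *USP37* (0.57) and the ubiquitin ligase subunit *FBXO32* (0.53) were higher. The kinase *PLK1* (-0.54) and the ligase subunit *SKP2* (-0.48) were lower, as was *AURKA* (-0.43), the kinase that shields MYCN from degradation and one chosen for mention after its value was seen. Of 16 RNA-binding protein genes linked to MYC-family mRNA, 7 (43.8%) were higher, 5 (31.2%) lower and 4 not called, beside 38.1% and 34.4% over all genes (median 0.04). The decay factors *ZFP36L2* (0.76), *ZFP36L1* (0.58) and *ZFP36* (0.37) were higher, and *TIA1* (-0.33), *IGF2BP3* (-0.31) and *PTBP1* (-0.27) were lower. *ELAVL3* itself, also named outside the rule, had 0.870 ± 0.0625 and 1.06 ± 0.284 FPKM and was not called (limma adjusted p = 0.26 in the wider fit).

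Among textbook targets that MYC activates, 23 of 38 tested (60.5%) were higher, 9 (23.7%) lower and 6 not called, beside 38.1% higher and 34.4% lower over all genes, with a median log2 fold change of 0.16 beside 0.02 over all genes. The folate enzyme *SHMT2* (1.36), the tRNA synthetase complex scaffold *AIMP2* (1.02) and the purine enzyme *PPAT* (0.80) led upward. *PTMA* (-0.92), *LDHA* (-0.59) and *CDK4* (-0.32) led downward. Of 9 targets described as repressed by MYC, 6 (66.7%) were higher and 2 (22.2%) lower (median 0.17), with *GADD45G* (2.06), *GADD45A* (1.44) and *CEBPA* (1.39) up and *NDRG2* (-0.74) and *CDKN1A* (-0.18) down. At the *MYCN* locus the neighbour *DDX1*, often amplified with it, was 55.7 ± 1.86 and 65.8 ± 1.20 FPKM (log2 fold change 0.24, limma adjusted p = 2.0e-04), opposite in direction to *MYCN*.

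The libraries held 29064154 to 32481049 reads, as recovered from the steps of the FPKM values, so depth differed by at most 11.8%. Libraries of a group differed by more than counting noise (chi-square per degree of freedom 3.36 to 6.91) and far less than libraries of different groups (144 to 164), so each was counted as a sample of its own, which does not tell separate cultures from separate preparations of 1 RNA. Neuroendocrine markers of the line were present: the granin *CHGA* had 43.3 ± 0.870 FPKM with PBS, and with PP 2 of 11 tested markers (18.2%, beside 38.1% of all genes) were higher (*SCG2* 0.66, *INSM1* 0.21) and 5 (45.5%, beside 34.4%) lower (among them *CHGA* -0.78 and *CHGB* -0.32). Of 12 stromal, immune and endothelial markers 8 had a mean under 1 FPKM over the 6 libraries, and their summed FPKM was 11.1 to 11.9 with PBS and 10.1 to 10.8 with PP; *PTPRC* and *CD3E* were at or near 0. Among the 4 tested *COL1A1* was higher (0.26) and *CDH5* lower (-0.39), counts that moved with the filter, and the part of these markers in the results for the network was not tested.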

How the data were processed

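RNA sequencing was done on 3 PBS and 3 PP libraries of NCI-H660 cells. The authors deposited 1 table of FPKM values per gene symbol and library. Per the labels, reads were handled with fastp, HISAT2 and HTSeq on GRCh38, whereas the study's methods also name HTSeq, but with Bowtie, hg19, RSEM and Cufflinks. Which of these made the values, and whether counting used strand, is not given in the sources used here.

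From the FPKM values log2(FPKM + 1) was computed, genes whose mean over the 6 libraries reached 1 FPKM were kept, and limma 3.58.1 (R 4.3.3, eBayes with an intensity trend, Benjamini-Hochberg adjustment over all genes tested) compared PP with PBS. The wider fit used a mean of at least 0.1. Because FPKM values were whole multiples of a step per gene, reads were recovered for 16133 genes, 95.4% of those above 0 in any library (largest residual 2.89e-05 reads), and tested with limma-voom. The other 776 had a value in 1 library. Exact permutation of 3 against 3 libraries cannot give a p below 0.1. The number of reads behind a value limits its precision.

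Members and gene lists were chosen with earlier results of these data known. Named were all members, up to 3 called genes at each end of each list with over 5 genes, every measured gene of shorter lists, and the 5 nearest profiles of *MYC* and *MYCN*; some results are not reported here. Alternatives were the pseudocount, the filter, median-ratio scaling, the trend, a replicate block, leaving out each library, and limma-voom.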

Additional observations from a re-analysis of the deposited data

How the results depend on the processing

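*MYC*, *MYCL*, *MYCN*, *MAX*, *MXD1*, *MXD3*, *MXD4* and *MLX* kept their direction and their call at an adjusted p under 0.05 under every alternative that gave them a value. *MXD1* did not keep its pass of the stricter cutoff: without PBS library 3 its log2 fold change was 0.98, below the limit of 1. With a mean FPKM of at least 5 required, *MYCN* and *MXD1* were not tested. The log2 fold change of *MYCN* ranged from -0.48 to -0.30 when single libraries were left out. *MXI1* lost its call without the eBayes trend (0.14), with median-ratio scaling (0.12) and with the replicate block (0.14), and its value ranged from 0.11 to 0.20 when single libraries were left out. *MNT* lost its call with median-ratio scaling (0.12) and with the replicate block (0.14), and ranged from 0.12 to 0.17 when single libraries were left out. In these fits the cause was not tested. Median-ratio scaling moved the median of all genes by -0.02. Over all genes, 263 passed the stricter cutoff upward and 397 did so with limma-voom. Downward 344 passed, against 559 with limma-voom and 531 with a pseudocount of 0.1. Among the counts of the lists reported here, 6 alternative values moved by more than 1.5 times. The stromal, immune and endothelial markers called lower went from 1 to 2 without the trend or with median-ratio scaling, to 4 with the filter at 0.1 and to 0 with it at 5, and those called higher from 1 to 0 with it at 5. The MYC-repressed targets called lower went from 2 to 1 with the filter at 5.

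Libraries that share a replicate number did not deviate together (correlations of -0.21, -0.014 and -0.13 for numbers 1, 2 and 3), so the numbers were not read as pairs, and the replicate block changed no call among the members other than those of *MXI1* and *MNT*. Depth limits *MYCN*, with 15 to 76 reads per library, more than any other member. One cell line, one time point and 3 libraries a group were available, FPKM is a relative scale, and protein was not measured.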

Other observations

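The MYC-activated targets were also divided by the E-box of their promoters. Of 33 tested targets with a RefSeq promoter, 11 held CACGTG in the 250 bases before a start site (33.3%, beside 11.4% of the 9557 tested genes with an entry), and of these 7 were higher and 4 lower with PP, with a median log2 fold change of 0.17. Of the 22 without it, 11 were higher and 5 lower, with a median of 0.10. Over all genes tested 38.1% were higher and 34.4% lower. The difference between these groups was not tested. The summed FPKM of the activated targets was 4699 to 4916 in the PBS libraries and 4446 to 4541 in the PP libraries. The sum was thus lower although more genes were called higher than lower. Abundant genes weigh most in such a sum, and the part of single genes in it was not tested.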
